A study of Mus musculus with 335 samples.

Results

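Single cells of 2 sorted populations of the mouse embryo were set against each other, 93 labelled Dorsal and 88 labelled Mesenchymal, together 181 of the 335 cells of the study. The cells were taken by their labels alone, so no measured value chose them. All came from the aorta-gonad-mesonephros (AGM), the embryonic region around the dorsal aorta where blood stem cells arise, of wild-type embryos at stage E11.5. Dorsal cells were sorted as Ngfr+Pdgfrb- from the dorsal side of the aorta, and their source is given as sympathoadrenal. Mesenchymal cells were sorted as Pdgfrb+Ngfr- from the ventral side, a gate that includes the mesenchyme beneath the aorta. The sort and the side of the aorta therefore changed together, and their contributions cannot be told apart. RNA was read from each cell with Smart-seq2, a plate method that covers whole transcripts. Each group formed 1 sequencing pool, and no source animal is named for any cell, so that a group counts as 1 sample. There is no test, and a difference between the groups cannot be told apart from a difference between their libraries. The 2 other groups of the study appear below only as levels beside these: 89 Ngfr+Pdgfrb- cells from the ventral side (Ventral) and 65 EPCR+CD45+ cells that include blood stem cells (HSC).

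Sympathetic neurons and adrenal chromaffin cells descend from the neural crest. Crest cells and Schwann cell precursors, which follow nerves, express Sox10 and the receptor Erbb3, and gather near the dorsal aorta, where bone morphogenetic proteins (BMPs) induce the sympathoadrenal programme. Its transcription factors switch on neuronal genes and the enzymes that make noradrenaline. The mesenchyme under the aorta is of mesodermal origin. It lays down matrix, gives rise to the smooth muscle and pericytes of the vessel wall, and secretes ligands such as Cxcl12 and Bmp4 that act on blood stem cells and on crest cells.

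Levels are counts per 1000000 counts on genes with a symbol (CPM), computed in each cell and averaged with every cell weighted equally. The log2 fold is log2 of (mean CPM in Dorsal + 1) over (mean CPM in Mesenchymal + 1), so that positive values are higher in Dorsal, and the added 1 CPM understates the change of low genes. A gene was called higher in a group at 2-fold or more. A cell was called positive for a gene at 5 or more counts after its counts were thinned at random to 280000, which kept 92 Dorsal and 72 Mesenchymal cells and left out 1 and 16 shallower ones. Limits in brackets are exact 95% limits, Poisson for summed counts and Clopper-Pearson for shares. They cover counting error only and say nothing of other embryos or pools. CPM is not divided by transcript length, so levels are compared between groups and not between genes.

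The Dorsal pool held 108409099 estimated counts and the Mesenchymal pool 68560755. The median cell held 1033890 counts and 8006 genes in Dorsal, and 505916 counts and 6177 genes in Mesenchymal. The median share of mitochondrially encoded genes was 5.09% in Dorsal and 5.34% in Mesenchymal cells. The sort genes followed the labels. Ngfr was positive in 80.4% of thinned Dorsal cells and 11.1% of thinned Mesenchymal cells, and Pdgfrb in 4.3% and 75%. Of the 93 Dorsal cells, 8 were macrophage-like, with most of 13 macrophage markers at 5 or more counts, and 0 of 88 Mesenchymal cells were. One of the 8 also held 76.2% of the crest and neuroblast markers described below, and the other 7 held at most 4.76% each. The pools shared 85 pairs of plate indices. The highest correlation of log levels between any 2 cells was 0.743 within Dorsal, 0.640 within Mesenchymal and 0.646 between the groups.

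Marker genes separated nearly every cell. A set of 21 markers of crest, glia and sympathoadrenal neuroblasts and a set of 20 of mesenchyme, smooth muscle and pericytes were counted in each thinned cell. A median of 57.1% of the crest and neuroblast set was positive in Dorsal cells and 4.76% in Mesenchymal cells. For the mesenchyme and muscle set the medians were 20% and 65%. Of 92 Dorsal cells, 88 held a larger share of the crest and neuroblast set, and 3 of the other 4 were among the macrophage-like cells. The 88 include the macrophage-like cells 24, 33, 71 and 90, which held 4.76% of that set and 0% of the other. These cells thus showed neither identity. All 72 Mesenchymal cells held a larger share of the mesenchyme and muscle set.

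**Figure D1:**
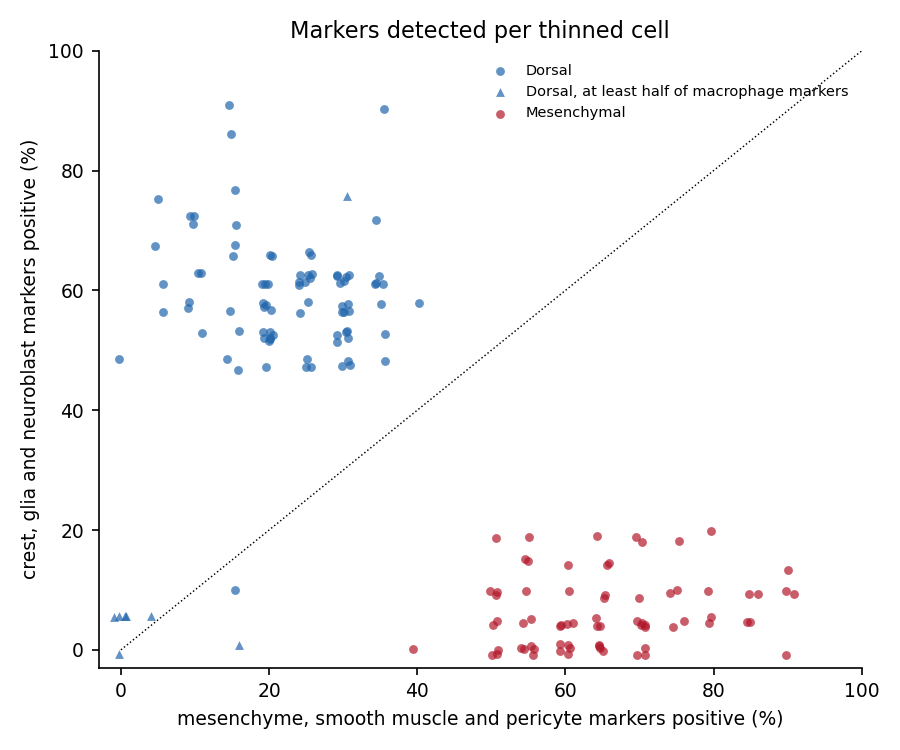
Share of crest, glia and neuroblast markers (vertical, %) against share of mesenchyme, smooth muscle and pericyte markers (horizontal, %) positive in each thinned cell, with points moved slightly apart and a dotted line of equal shares. Dorsal cells (blue) lie above the line except for 4, 3 of them macrophage-like (triangles), and all 72 Mesenchymal cells (red) lie below it.

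Markers of other cell types were present to different degrees. In Mesenchymal cells 6 of the 13 macrophage markers had under 1 count in all, among them C1qa, C1qb and Tyrobp, and the summed level of the 13 ran from 0 to 53.3 CPM per cell. In Dorsal cells that sum had a median of 24.96 CPM and a maximum of 21083 CPM. Endothelial markers, 10 present, were positive for at most 2 per thinned cell in either group. Their summed level had a median of 20.9 CPM in Dorsal and 29.2 CPM in Mesenchymal, with Sox17 under 1 count in both and Cldn5 in Mesenchymal. Of 6 coelomic and mesonephric epithelium markers present, Pax8 was the highest at 123 CPM in Dorsal and 238 CPM in Mesenchymal, and Upk3b was under 1 count in both. The summed level of 3 erythroid markers had a median of 0 in both groups, and that of 10 haematopoietic progenitor markers medians of 7.43 and 24.1 CPM, with Gfi1 under 1 count in both. Of 6 chondrogenic markers, 36 of 92 Dorsal and 12 of 72 Mesenchymal cells had 3 or more, with Col2a1 the highest in both. Yet 4 of the 6 were positive in at least 5% of Dorsal cells, against all 6 in Mesenchymal. The set is not specific, since Sox9 is also on the crest and glial list below. Sox9 itself was higher in Mesenchymal (log2 fold -2.44), and which members made up the Dorsal count was not tested. Of 6 melanoblast markers, which include Sox10 and Kit, 11 Dorsal and 0 Mesenchymal cells had 3 or more. The sensory neuron list had 3 of 9 genes in the table and the skeletal muscle list 2 of 7, led by Isl1 and Des, which other lineages here also express.

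Among 11844 measured genes, 1699 (14.3%) passed 2-fold on the Dorsal side and 903 (7.62%) on the Mesenchymal side. Measured means at least 100 counts over the cells of both groups and at least 5 counts in at least 10 of them. Over this whole set the log2 fold had a median of 0.18. Median-of-ratios scaling between the groups, which brought the median to 0.0037, gave 1370 and 1113 genes. Without the 8 macrophage-like cells the numbers were 1618 and 955. Of 32 gene lists described below, 12 changed a count without those cells, 11 of them by 1 gene in either direction or both and dissociation stress genes by 2. In Dorsal the neural crest and glial count became 21, catecholamine 7, pan-neuronal 19, Notch 7, adhesion 8 and BMP and TGF-beta 4. In Mesenchymal the sympathoadrenal count became 0, Hox 10 and D cyclins with cyclin-dependent kinase (CDK) inhibitors 1. Those of collagen, niche ligand and stress genes are given with their lists. At 4-fold, 628 genes (5.3%) were higher in Dorsal and 395 (3.34%) in Mesenchymal. The share of positive cells was at least 50 percentage points higher in Dorsal for 102 genes (0.861%) and in Mesenchymal for 54 (0.456%). Dbh was the only measured gene for which the cells of the groups did not overlap. This rests on low levels in part of the Dorsal cells, the lowest at a log2(CPM + 1) of 0.70.

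**Figure D2:**
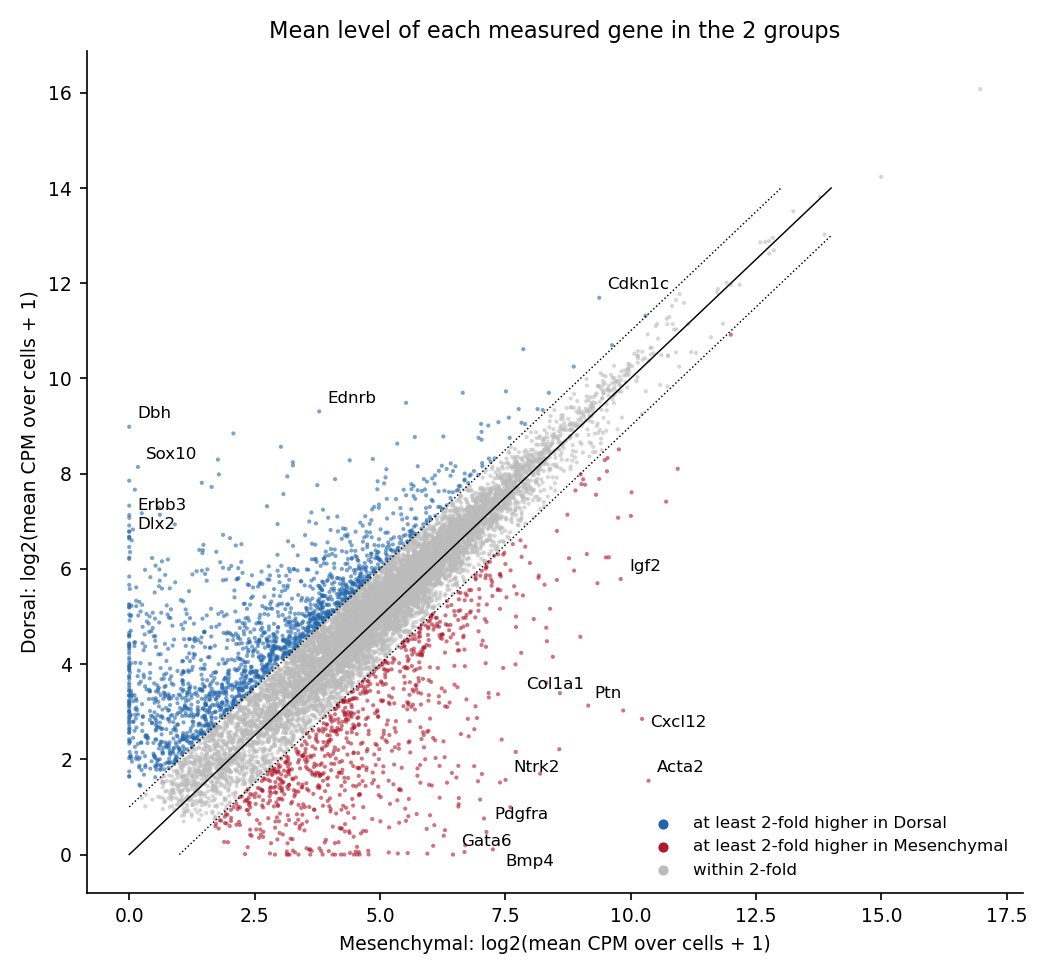
Mean level of each of the 11844 measured genes in Mesenchymal (horizontal) and Dorsal (vertical), both as log2(mean CPM + 1), with a solid line of equal levels and dotted lines at 2-fold. Dbh, Sox10, Erbb3 and Dlx2 sit at the left edge, at or near 0 in Mesenchymal, and Gata6, Bmp4 and Pdgfra at the lower edge, at or near 0 in Dorsal.

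Genes of the neural crest and glia were far higher in Dorsal. Of 26 measured genes on this list, 20 passed 2-fold in Dorsal and 1 in Mesenchymal, with a median log2 fold of 3.95 against 0.18 over all genes. The median was 4.50 with genes at 0 in Mesenchymal set at their bound, the fold against 3 counts over that pool. Sox10, the factor that keeps crest and glial identity, stood between 1.82 and 742 CPM over Dorsal cells with a median of 297 CPM. It was at 0 in 87 of 88 Mesenchymal cells and at 11.3 CPM in the other. Mean levels of 281 and 0.13 CPM gave a log2 fold of 7.97, and 84.8% (75.8 to 91.4) of thinned Dorsal cells and 1.4% (0.0 to 7.5) of Mesenchymal cells were positive. Erbb3 (chr10:128567523-128589652, minus strand), the neuregulin receptor subunit that crest and Schwann cell precursors depend on, ran from 0 to 557 CPM in Dorsal with a median of 107 CPM and was at 0 in every Mesenchymal cell. Its summed counts were at least 3196-fold higher in Dorsal against the floor of 3 counts.

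The other leading members encode glial and crest proteins. Tlx2, a homeodomain factor of crest-derived neurons, ran from 0 to 661 CPM over Dorsal cells with a median of 2.30 CPM and was at 0 in all 88 Mesenchymal cells. Thinned cells were positive in 43.5% (33.2 to 54.2) of Dorsal, and summed counts were at least 2098-fold higher there. Cdh19, a cadherin of Schwann cell precursors, stood at mean levels of 155 and 0.51 CPM (6.70), Moxd1, a monooxygenase related to Dbh, at 459 and 3.22 CPM (6.77), and Egfl8, a secreted protein, at mean levels of 113 and 0.05 CPM (6.75). Tfap2b, a crest and sympathetic factor, stood at 73.98 and 0.37 CPM, Fabp7, a fatty acid binding protein of glial precursors, at 83.4 and 1.64 CPM, and Foxd3, a crest specifier, at 23.3 and 0 CPM. Sox2 was positive in 39.1% of Dorsal cells and in 0 of 72 Mesenchymal cells, which allows a share of up to 4.99%. Sox9, which crest and skeletogenic mesenchyme both use, was the member higher in Mesenchymal, at 9.43 and 55.5 CPM (log2 fold -2.44), and Zeb2 (150 and 173 CPM) and S100b (10.2 and 13.5 CPM) lay within 2-fold.

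**Figure D3:**
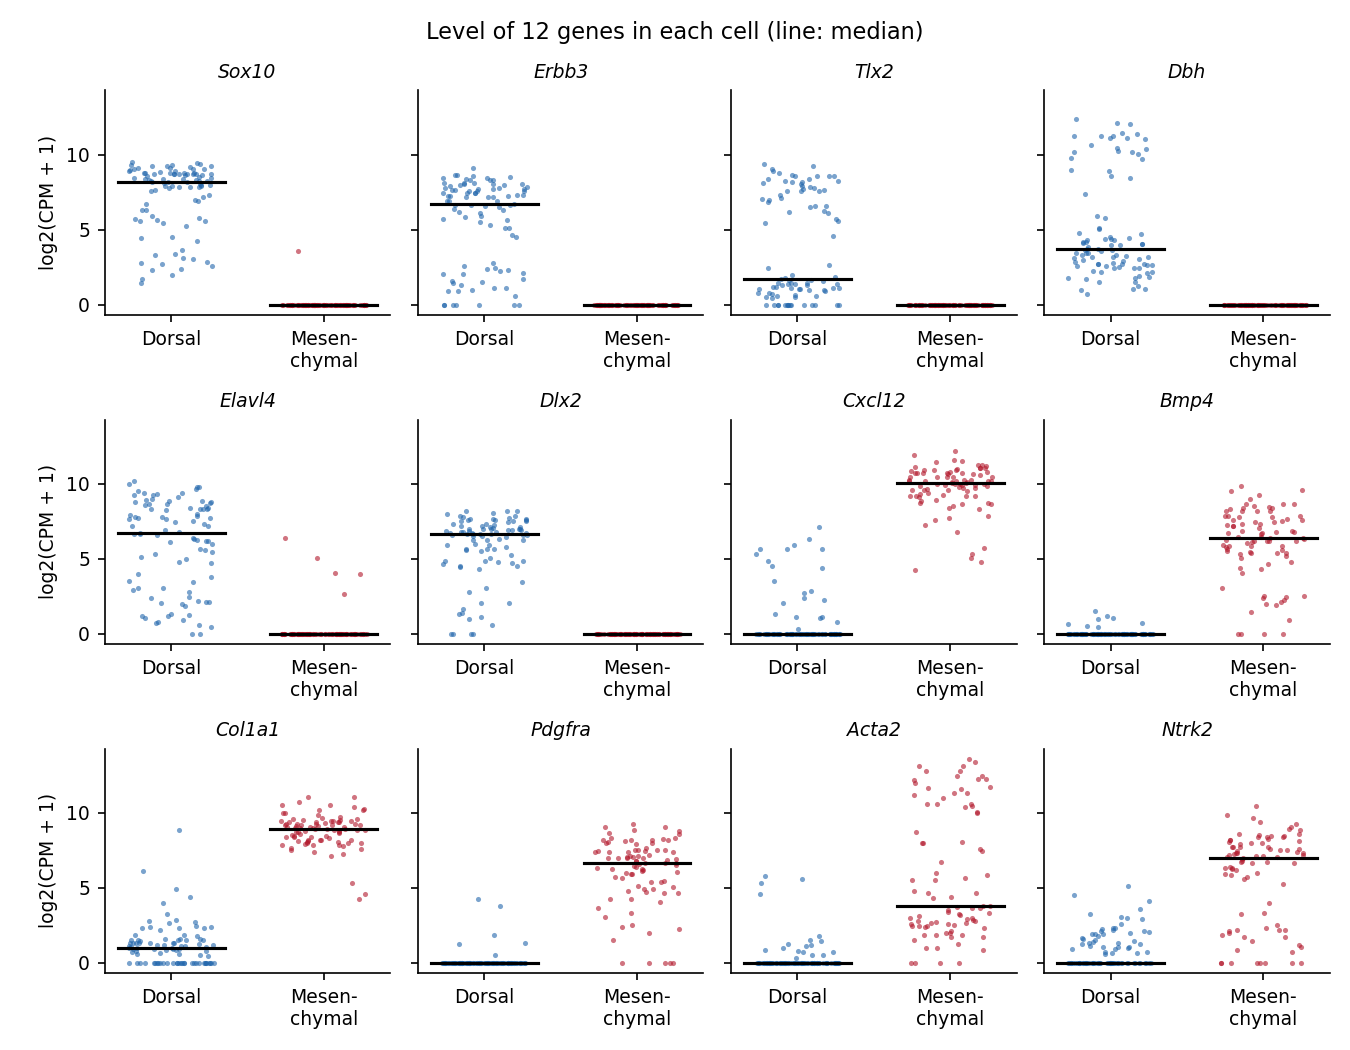
Level of 12 genes in each of the 93 Dorsal (blue) and 88 Mesenchymal (red) cells as log2(CPM + 1), with a line at the median. Sox10, Erbb3, Tlx2 and Dlx2 are at 0 in at least 87 of 88 Mesenchymal cells, Dbh and Acta2 split into a low and a high band within their own group, and Cxcl12 and Col1a1 are above 0 in every Mesenchymal cell.

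Genes on the list of sympathoadrenal transcription factors were also higher in Dorsal, 12 of 16 measured, with 1 higher in Mesenchymal and a median log2 fold of 3.09. The 12 include Rgs4 (1.15), a regulator of G protein signalling and not a transcription factor, and Tfap2b, which the crest list also counts. Phox2a, a homeodomain factor of noradrenergic neurons, stood at 31.6 and 0.03 CPM, positive in 22.8% of Dorsal cells. Insm1, a zinc-finger factor of neuroendocrine precursors, stood at 36.2 and 0.10 CPM (log2 fold 5.08), and St18, a zinc-finger factor of neural cells, at 46.8 and 0.01 CPM (5.57). Gata3 (123 and 12.2 CPM) and Hand2 (40.9 and 4.40 CPM), which act in sympathetic differentiation, had log2 folds of 3.23 and 2.96, and both groups had cells at 0. The broadly expressed factors Sox4 and Sox11 did not separate the groups, at log2 folds of 0.15 and -0.13. Dlx2, a distal-less homeodomain factor that the naming rule placed among the 20 largest folds, was positive in 83.7% (74.5 to 90.6) of Dorsal cells and at 0 in every Mesenchymal cell.

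Catecholamine genes passed 2-fold in Dorsal for 6 of 13 measured and in Mesenchymal for 0. Dbh (chr2:27165233-27183200, plus strand), dopamine beta-hydroxylase, which makes noradrenaline from dopamine, was above 0 in all 93 Dorsal cells, from 0.62 to 5449.9 CPM with a median of 12.1 CPM, and at 0 in all 88 Mesenchymal cells. The Dorsal cells were spread unevenly: the upper quartile was 352 CPM and the mean 506.04 CPM. Thinned cells were positive in 42.4% (32.1 to 53.1) of Dorsal and 0 of Mesenchymal, and summed counts were at least 8142-fold higher in Dorsal. Th (chr7:142892752-142931128, minus strand), tyrosine hydroxylase, the rate-limiting enzyme, had a median of 2.31 CPM and a highest cell of 860 CPM in Dorsal, and was above 0 in 1 Mesenchymal cell. Mean levels were 47.2 and 0.75 CPM, a log2 fold of 4.78. Cyb561, the granule cytochrome that supplies Dbh with electrons, stood at 96.0 and 0.04 CPM (6.55), Gch1, which starts the synthesis of the cofactor of Th, at 20.3 and 0 CPM, and Slc18a1 and Slc18a2, the vesicular monoamine transporters, at log2 folds of 2.90 and 3.10. The members within 2-fold included the degrading enzymes Maoa (0.42) and Maob (0.35), the cofactor enzymes Qdpr (0.52), Pts (0.71) and Spr (0.81), and the decarboxylase Ddc (0.94), which was positive in 59.8% of Dorsal against 19.4% of Mesenchymal cells.

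The median Dorsal cell held little Dbh, and a sizeable minority of the cells formed a high band. The Dorsal cell with the most Dbh held 10.4% of the pool's Dbh counts. Of 16 other cells that share a plate index with it, 15 had at least 5 counts, at a median of 15.5 CPM, and of 76 that share none, 59 did, at a median of 10.4 CPM. The macrophage-like cells with at most 4.76% of the crest and neuroblast markers also held Dbh, at log2(CPM + 1) from 1.78 to 3.85. They held Sox10 as well, from 1.76 to 3.68. Whether part of the low level came from other wells was not tested.

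Upstream sequence of Th and Dbh is shown because both genes are targets of homeodomain factors of this lineage. The sequences are from RefSeq on GRCm38.p6, on the strand of the gene, and exclude bases in GENCODE M21 exons except where stated. The 250 bases before each RefSeq start were searched on both strands for TGACGTCA, the cAMP response element, and for TAAT or its complement ATTA, the core that many homeodomain proteins bind, with overlaps counted. Capitals mark the matches. The Th stretch, chr7:142900015-142900195 on the minus strand, ends 20 bases before the start and holds the element at -45 and homeodomain cores at -175 and -167.
Th: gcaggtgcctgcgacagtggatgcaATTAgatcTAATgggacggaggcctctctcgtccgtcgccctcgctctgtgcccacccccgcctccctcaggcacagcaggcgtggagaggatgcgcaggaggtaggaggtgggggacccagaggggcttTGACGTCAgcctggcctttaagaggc
Dbh: catgtgtcATTAgtgccaATTAggggagat
The Dbh stretch, chr2:27165342-27165371 on the plus strand, lies upstream of the RefSeq start and within the first exon of a longer GENCODE transcript, so only 30 bases around the cores at -157 and -147 are shown. Another core lies at -65. Of 32851 RefSeq promoters searched in the same way, 1.55% hold the cAMP response element, 54.9% at least 1 homeodomain core and 17.3% at least 3. A match describes the letters and not binding.

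Pan-neuronal genes were higher in Dorsal for 18 of 21 measured and in Mesenchymal for 1, with a median log2 fold of 2.95. Elavl4, an RNA-binding protein of neurons, ran from 0 to 1194 CPM over Dorsal cells with a median of 106 CPM and was above 0 in 5 Mesenchymal cells, at most at 83.5 CPM. Thinned cells were positive in 68.5% (57.96 to 77.8) of Dorsal and 4.2% (0.9 to 11.7) of Mesenchymal. Tubb3, neuronal beta-tubulin, had a mean of 378 CPM but a median of 8.47 CPM in Dorsal, with 42.4% of thinned cells positive against 13.9% in Mesenchymal. The neurofilament genes Nefm (272 and 34.004 CPM), Nefl (150 and 13.6 CPM) and Ina (15.2 and 0 CPM) and the adhesion molecule L1cam (104 and 2.66 CPM) were all higher in Dorsal. Mapt and Syt1, which mark later neurons, lay within 2-fold, at 0.86 and 0.93.

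Secretory granule and neuropeptide genes were higher in Dorsal for 5 of 6 measured, led by Scg3 (37.02 and 0 CPM) and Chgb (36.4 and 0.03 CPM), both granule proteins. Cpe, a peptide-processing enzyme, was higher in Mesenchymal (36.8 and 84.96 CPM). Cck, the cholecystokinin peptide gene, which is on no list but among the largest folds, stood at a mean of 121 CPM with a median of 3.38 CPM over Dorsal cells, and was positive in 29.3% of them and in 1 Mesenchymal cell. Neurotransmitter receptors and channels were higher in Dorsal for 9 of 11 measured and in Mesenchymal for 0. They included the ganglionic nicotinic receptor subunits Chrna3 (30.01 and 0.43 CPM) and Chrnb4 (27.4 and 1.06 CPM) and the serotonin receptor subunit Htr3a (13.8 and 0 CPM). RNA-binding and splicing genes of neurons divided: 8 of 20 measured were higher in Dorsal, among them Elavl3 (38.6 and 0.15 CPM) and the splicing regulators Srrm4 (20.9 and 0.07 CPM) and Celf3 (24.8 and 0.36 CPM), and 4 in Mesenchymal, led by Rbpms2 (4.10 and 24.2 CPM) and Celf4 (4.14 and 19.6 CPM).

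Many Dorsal cells were positive for both a crest gene and a neuronal gene. Of 92 thinned cells, 56 (60.9%, 50.1 to 70.9) were positive for both Sox10 and Elavl4, 22 for Sox10 alone, 7 for Elavl4 alone and 7 for neither. Sox10 and Dbh were positive together in 33 cells, Sox10 alone in 45, Dbh alone in 6 and neither in 8. The overlap expected from the single shares was not computed, and a positive call does not give the level. In Dorsal cell 49, log2(CPM + 1) was 11.3 for Dbh, 4.46 for Sox10 and 0 for Erbb3. It was 4.20, 9.27 and 9.12 in cell 16, and 12.1, 8.76 and 6.64 in cell 92. Dbh and Th were positive together in 24 cells, Dbh alone in 15 and Th alone in 4. These gene pairs and single cells were chosen after their values were seen, and cells of 1 pool are not replicates.

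**Figure D4:**
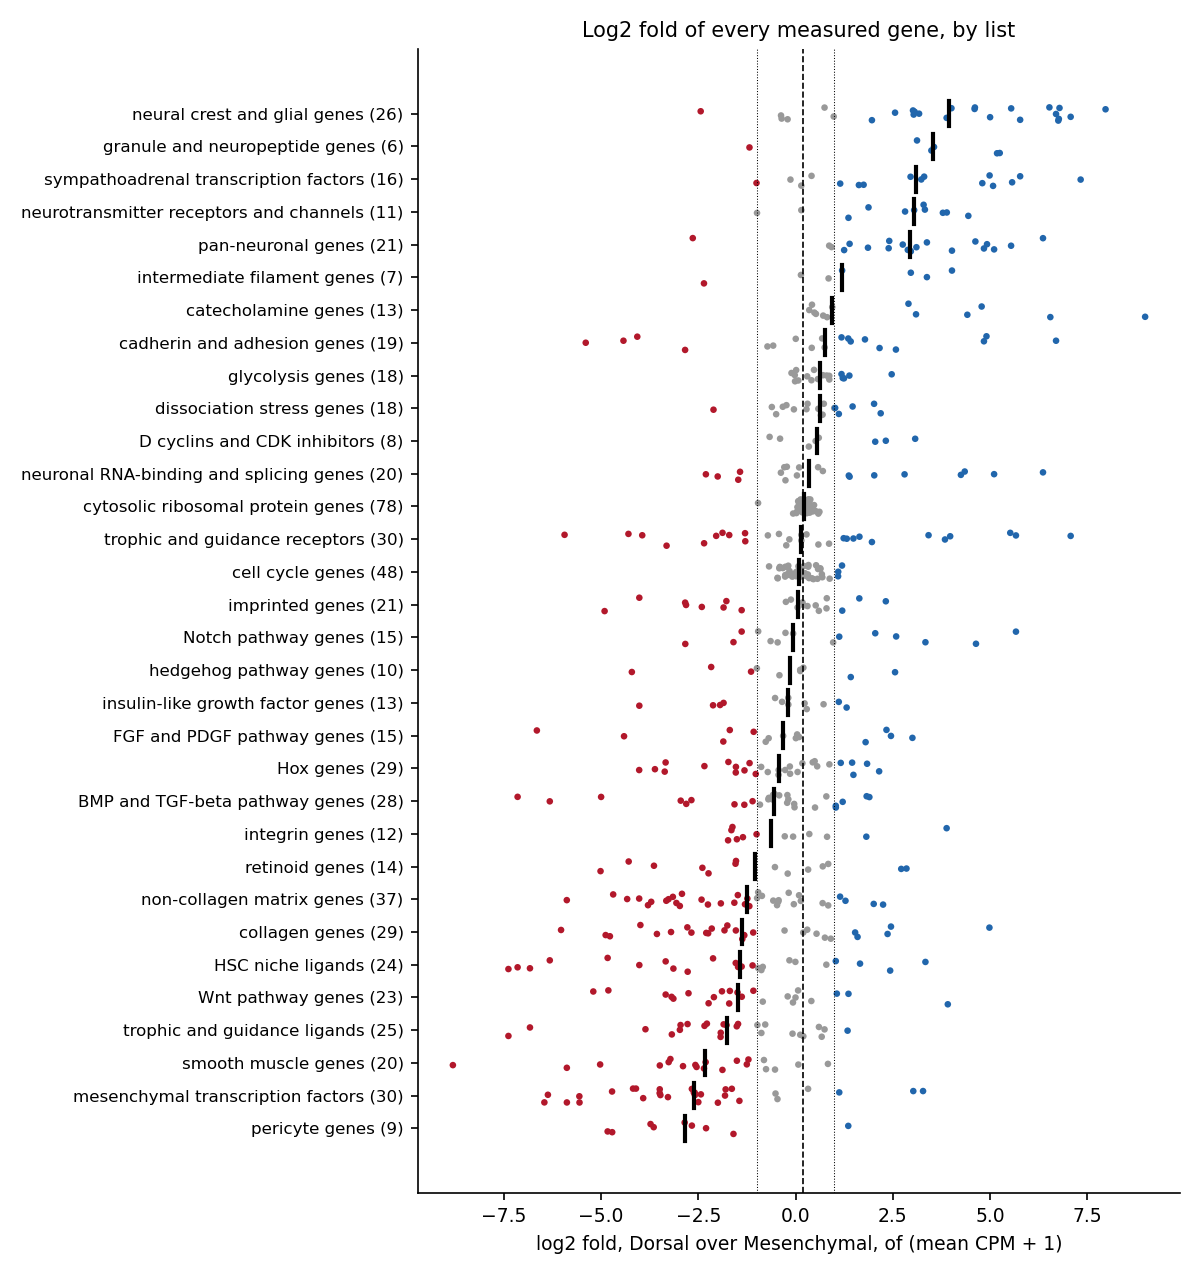
Log2 fold (Dorsal over Mesenchymal, of mean CPM + 1) of every measured gene in each list, with its number of measured genes in brackets, a bar at the list's median, dotted lines at 2-fold and a dashed line at the median of all genes. Medians run from 3.95 for neural crest and glial genes to -2.85 for pericyte genes, and blue and red points are genes at least 2-fold higher in Dorsal and in Mesenchymal.

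Receptors for trophic and guidance signals split between the groups, with 11 of 30 measured higher in Dorsal, 10 higher in Mesenchymal and a median log2 fold of 0.15. Several receptors of the crest and the autonomic lineage were higher in Dorsal. Others on the list were not: Ntrk3 (48.8 and 204 CPM) and Ednra (log2 fold -1.70) were higher in Mesenchymal, and Erbb2 lay within 2-fold (-0.71). Ednrb, the endothelin receptor of crest cells, ran from 2.67 to 2931 CPM over Dorsal cells with a median of 468 CPM, was at 0 in 72 of 88 Mesenchymal cells, and had a log2 fold of 5.52. Ret, the signalling receptor for glial cell line-derived neurotrophic factor (GDNF), stood at 49.7 CPM in Dorsal and at 0 in every Mesenchymal cell, and was positive in 30.4% of Dorsal cells. Its co-receptors Gfra1, Gfra2 and Gfra3 stood at log2 folds of 3.84, 3.97 and 1.96, and Ptprz1, a phosphatase receptor for pleiotrophin, at 3.42. Mesenchymal cells held other receptors. Ntrk2, the receptor for brain-derived neurotrophic factor, had a median of 129 CPM over Mesenchymal cells, from 0 to 1424 CPM, and a median of 0 and a maximum of 33.99 CPM over Dorsal cells, a log2 fold of -5.94. Ntrk2 stood at 2.81 CPM in Ventral and 1.34 CPM in HSC cells. The netrin receptor Unc5c (16.8 and 348 CPM) and the ephrin receptors Epha4 (2.50 and 52.8 CPM) and Epha3 (1.96 and 28.4 CPM) followed. Kit, the receptor for stem cell factor, was also higher in Mesenchymal, at 26.7 and 101 CPM.

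The ligands lay mostly on the mesenchymal side: 15 of 25 measured trophic and guidance ligands were higher in Mesenchymal and 1 in Dorsal, with a median log2 fold of -1.77. Cxcl12 (chr6:117168535-117181367, plus strand), the chemokine that attracts and retains blood stem cells, was above 0 in every Mesenchymal cell, from 18.3 to 4748 CPM with a median of 1055 CPM. It was at 0 in 71 of 93 Dorsal cells and reached 139 CPM in the highest. The log2 fold was -7.38, and -8.06 and -6.76 in the cells with odd and with even i7 plate index. Ptn, pleiotrophin, a heparin-binding growth factor, had a median of 625 CPM in Mesenchymal and 0 in Dorsal (mean 924 and 7.15 CPM). Ntf3, neurotrophin 3, was at 0 in every Dorsal cell and at a mean of 13.5 CPM in Mesenchymal. Sema3d, a class 3 semaphorin, was the ligand higher in Dorsal (16.8 and 6.03 CPM).

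Of 27 ligand and receptor pairs listed, 19 had both genes measured. In 6 pairs the ligand was at least 2-fold higher in Mesenchymal and the receptor in Dorsal, and in 0 pairs the reverse. They were Nrg1 with Erbb3, Gdnf with Ret, Edn3 with Ednrb, Ptn with Ptprz1, Sema3f with Nrp2 and Igf2 with Igf1r. The ligands were detected in a minority of cells for 4 of them: Nrg1 was positive in 27.8% of thinned Mesenchymal cells (30.8 CPM, against 3.64 CPM in Dorsal), Edn3 in 26.4% (14.9 and 1.02 CPM), Sema3f in 25% (13.03 and 2.69 CPM) and Gdnf in 8.3% (7.96 and 0.77 CPM). Igf1r was near the 2-fold line, at a log2 fold of 1.11. Both genes were higher in Mesenchymal for Bdnf with Ntrk2, Ntf3 with Ntrk3 and Slit2 with Robo1. The remaining 10 pairs had a gene within 2-fold, among them Kitl with Kit. These are RNA levels in separate pools and no interaction was measured. The pairs were chosen with earlier results of these data known, so the 6 against 0 is not an independent result.

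**Figure D5:**
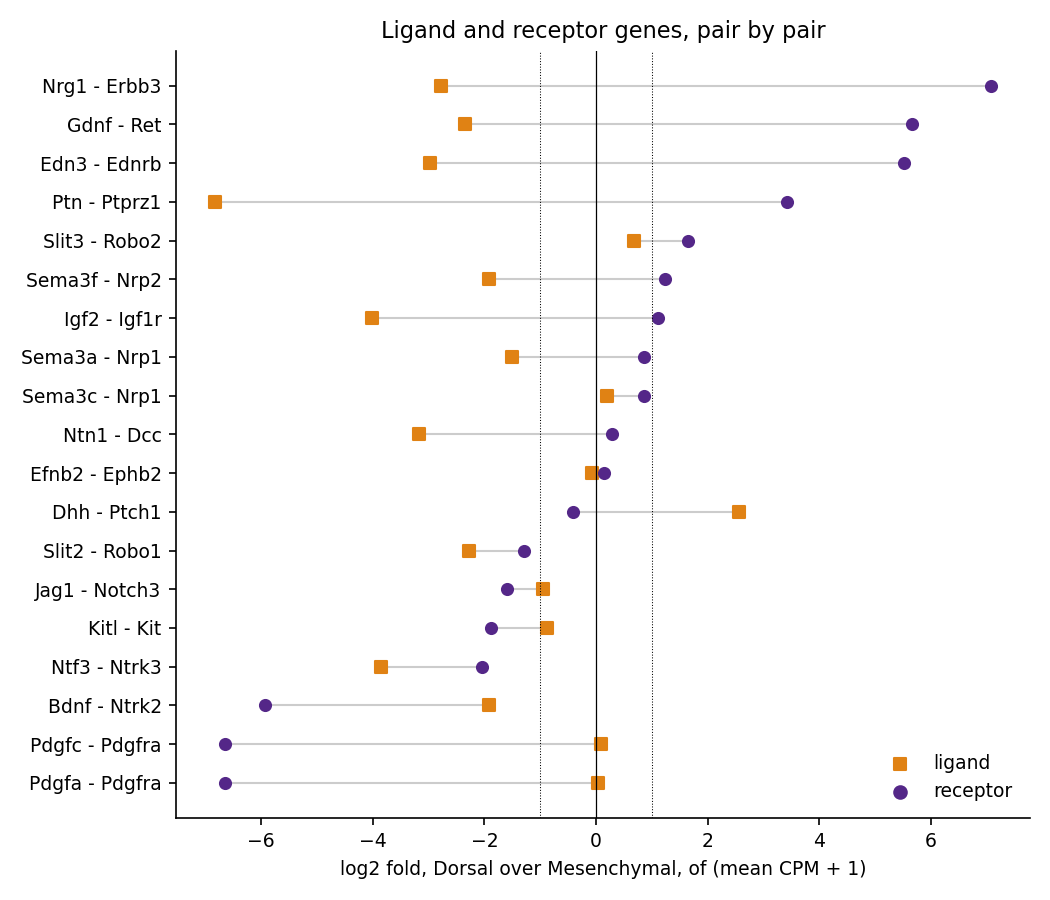
Log2 fold (Dorsal over Mesenchymal, of mean CPM + 1) of the ligand (square) and the receptor (circle) of the 19 pairs with both genes measured, with dotted lines at 2-fold. In 6 pairs, from Nrg1 and Erbb3 to Igf2 and Igf1r, the ligand lies beyond the line on the Mesenchymal side and the receptor beyond it on the Dorsal side.

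Transcription factors of mesenchyme were higher in Mesenchymal for 24 of 30 measured and in Dorsal for 3, with a median log2 fold of -2.60. Gata6, a zinc-finger factor of mesoderm and vascular smooth muscle, was at 0 in all 93 Dorsal cells and ran to 444 CPM in Mesenchymal with a median of 61.03 CPM. Its summed counts were at least 3295-fold higher in Mesenchymal. Prrx1 (chr1:163245119-163313710, minus strand), a homeodomain factor of embryonic mesenchyme, had a median of 319 CPM in Mesenchymal and 1.71 CPM in Dorsal, with 87.5% and 2.2% of thinned cells positive. Tbx18, a T-box factor of mural cell and urogenital precursors, stood at mean levels of 0.32 and 76.4 CPM (log2 fold -5.88), Foxc2, a forkhead factor of paraxial and vascular mesenchyme, at 1.01 and 93.7 CPM (-5.56), and Snai2, a factor of migrating mesenchymal cells, at 3.46 and 208 CPM (-5.55). Zeb1, which acts in the same process as Snai2, lay within 2-fold (0.32). Tbx2, Tbx3 and Heyl were the members higher in Dorsal, Tbx2 and Tbx3 at log2 folds of 3.28 and 3.03 and Heyl at 1.12.

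Most collagen and other matrix genes past 2-fold were higher in Mesenchymal. Of 29 collagen genes measured, 18 were higher in Mesenchymal and 5 in Dorsal, and of 37 other matrix genes 20 and 4. Col1a1 (chr11:94936224-94953042, plus strand), the main chain of type I collagen, ran from 18.1 to 2143 CPM over Mesenchymal cells with a median of 491 CPM. Its median in Dorsal was 1.03 CPM, although the highest Dorsal cell, at 466 CPM, lay within the Mesenchymal range. It was positive in 98.6% (92.5 to 99.96) and 3.3% (0.7 to 9.2) of thinned cells, the largest difference in share of any measured gene. The collagen genes that followed by size of fold were Col9a1 (0.80 and 52.2 CPM), Col6a3 (0.0017 and 26.4 CPM) and Col12a1 (9.33 and 163 CPM), which encode non-fibrillar chains. Among fibrillar chains other than Col1a1 the differences were smaller or on the other side. Col1a2, the partner of Col1a1, stood at 187 and 634 CPM (log2 fold -1.75) and Col3a1 at 134 and 861 CPM (-2.68), while Col2a1 (0.54) and Col5a2 (0.91) lay within 2-fold. Fbln5, an elastic fibre protein, stood at 1.86 and 167 CPM, Lox and Loxl1, which cross-link collagen and elastin, at 0.06 and 26.2 CPM and 2.63 and 71.99 CPM, and Fn1, fibronectin, at 74.8 and 757 CPM.

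The 5 collagen and 4 other matrix genes higher in Dorsal are a share of their lists close to the 14.3% of all measured genes. Col20a1, a collagen of the type that associates with fibrils, stood at 31.1 CPM in Dorsal and at 0 in 87 of 88 Mesenchymal cells. Col9a3 (37.4 and 6.01 CPM), Col18a1 (105 and 19.5 CPM), Col5a3 (7.40 and 1.78 CPM) and Col25a1 (54.8 and 18.3 CPM) were also higher in Dorsal, as were the laminin chains Lama4 (119 and 24.2 CPM) and Lamc1 (101 and 40.8 CPM), the inhibitor Timp3 (236 and 57.8 CPM) and Postn (526 and 237 CPM). Without the macrophage-like cells 6 collagen genes were higher in Dorsal and 17 in Mesenchymal. Cell adhesion genes divided: among 19 measured, 9 were higher in Dorsal, led by Cdh19, Cdh6 (288 and 8.62 CPM) and L1cam, and 4 in Mesenchymal, led by Cdh3 (0.45 and 60.1 CPM) and Cdh11 (22.8 and 510 CPM). Cdh2, N-cadherin, lay within 2-fold (266 and 165 CPM). Integrins were higher in Mesenchymal for 6 of 12 and in Dorsal for 2, the latter also close to 14.3%. Itga4, which binds fibronectin and Vcam1, stood at 310 and 20.1 CPM.

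Smooth muscle genes were higher in Mesenchymal for 15 of 20 measured and in Dorsal for 0, with a median log2 fold of -2.33. Acta2 (chr19:34241090-34255590, minus strand), smooth muscle actin, had the largest fold in this direction, -8.81 on mean levels of 1.93 and 1312 CPM. The Mesenchymal cells were uneven, from 0 to 12497 CPM with a median of 13.04 CPM and an upper quartile of 1436 CPM, and Dorsal cells reached 54.7 CPM. Thinned cells were positive in 36 of 72 (50%, 37.98 to 62.02) of Mesenchymal and 4.3% (1.2 to 10.8) of Dorsal. One Mesenchymal cell held 35.8% of the pool's Acta2 counts. Of 18 other cells that share a plate index with it, 17 had at least 5 counts (median 262 CPM), and of 69 that share none, 35 did (median 8.98 CPM). Without that cell and the 18 the log2 fold was -8.58, an alternative chosen after the values were seen. Whether part of the lower band came from other wells was not tested.

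Cnn1, calponin, which binds actin in contractile muscle, stood at 0.14 and 65.8 CPM with 34.7% of Mesenchymal cells positive, Actg2 at 2.62 and 117 CPM, and Myocd, the coactivator of the contractile programme, at 0.84 and 19.6 CPM. Several members differed less: Tagln stood at 57.1 and 287 CPM, Cnn2 at 321 and 744 CPM and Myl9 at 329 and 578 CPM. Srf, the factor that binds the CArG box of muscle promoters, was at a log2 fold of 0.07. Pericyte genes were higher in Mesenchymal for 8 of 9 measured, among them Rgs5 (11.2 and 319 CPM), Angpt1 (1.85 and 79.97 CPM) and Kcnj8 (0.19 and 13.9 CPM). Mcam was higher in Dorsal (199 and 77.1 CPM). Acta2 and the fibroblast receptor Pdgfra were positive together in 28 of 72 Mesenchymal cells, Pdgfra alone in 31 and Acta2 alone in 8.

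The CArG box was searched for by exact match on both strands in the 250 bases before the RefSeq start of the smooth muscle genes, and the stretches that hold it in Cnn2 and Myl9 are shown because these 2 genes of the matched set had the larger levels in Mesenchymal, a choice made after the matches were seen. Of 21 genes listed, 17 had a promoter entry, and 4 of these held a box: Cnn2, Myl9, Srf and Vcl. Of these, Cnn2 passed 2-fold (-1.21), and Myl9 (-0.81), Srf and Vcl (-0.53) did not. No exact match lay in these windows of Acta2 and Cnn1. Of all 32851 promoters, 1.47% hold a match. Capitals mark the box, at -56 in Cnn2 (chr10:79988500-79988583, plus strand) and -161 in Myl9 (chr2:156775264-156775419, plus strand), and bases in GENCODE exons are left out.
Cnn2: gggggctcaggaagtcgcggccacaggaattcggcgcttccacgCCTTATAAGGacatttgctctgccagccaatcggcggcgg
Myl9: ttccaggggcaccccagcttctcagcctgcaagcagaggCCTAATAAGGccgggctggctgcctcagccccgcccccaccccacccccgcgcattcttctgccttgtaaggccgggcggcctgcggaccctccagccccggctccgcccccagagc

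Ligands of the blood stem cell niche were higher in Mesenchymal for 14 of 24 measured and in Dorsal for 4. Without the macrophage-like cells these were 13 and 3. Both Dorsal counts are close to the 14.3% of all measured genes. Bmp4 (chr14:46383520-46390669, minus strand), a ligand that supports blood stem cells and instructs sympathetic precursors, ran from 0 to 947 CPM over Mesenchymal cells with a median of 82.7 CPM and did not exceed 1.90 CPM in any Dorsal cell. Its log2 fold was -7.14. Bmper, a secreted BMP modulator, stood at 0.69 and 134 CPM (-6.32), Rspo3, a Wnt amplifier, at 2.31 and 32.5 CPM and Wnt11 at 0 and 7.81 CPM. All 72 thinned Mesenchymal cells were positive for Cxcl12, and 60 of them were positive for Bmp4. Kitl, stem cell factor, was low in both groups (2.34 and 5.15 CPM) and was positive in 6 of 72 Mesenchymal cells. Dll1, a Notch ligand, was higher in Dorsal, positive in 16.3% of cells, and at 0 in every Mesenchymal cell. Gas6 (21.7 and 3.21 CPM) and Spp1 (9.58 and 2.35 CPM) were also higher in Dorsal.

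Ventral cells, which passed the Ngfr gate on the ventral side, held intermediate mean levels of these ligands: 53.1 CPM of Cxcl12, 96.5 CPM of Ptn, 10.6 CPM of Bmp4 and 17.8 CPM of Bmper. For Sox10, Dbh and Th they held 113, 386 and 56.98 CPM. The deepest Ventral cell held 18.5% of that pool's counts, but these means weight cells equally.

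Among signalling pathways, Wnt genes were higher in Mesenchymal for 14 of 23 measured and in Dorsal for 3. The Dorsal counts of Wnt genes and of the BMP and TGF-beta genes that follow are close to the 14.3% of all measured genes. The Mesenchymal side held secreted modulators, Sfrp2 (9.50 and 385 CPM), Dkk1 (0.64 and 44.9 CPM) and Frzb (7.65 and 77.8 CPM), and the Dorsal side Nkd2 (69.9 and 3.71 CPM), an intracellular inhibitor. BMP and TGF-beta genes gave 9 and 5 of 28, with the type I and II receptors Bmpr1a, Bmpr2, Tgfbr1 and Tgfbr2 and the target genes Id1, Id2 and Id3 within 2-fold. Of other targets on that list, Id4 was higher in Mesenchymal (-1.32) and Msx2 in Dorsal (1.83). Notch genes gave 3 in Mesenchymal and 6 in Dorsal of 15. The Dorsal side held Notch1 (109 and 25.5 CPM), Dll3 (99.2 and 3.03 CPM), Mfng (62.2 and 0.25 CPM) and Hes6 (114 and 18.2 CPM), and the Mesenchymal side the mural receptor Notch3 (18.1 and 56.8 CPM) and Hey2 (1.18 and 14.6 CPM).

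FGF and PDGF genes gave 5 in Mesenchymal and 4 in Dorsal of 15. Pdgfra, the receptor that marks fibroblast precursors, had a median of 102 CPM in Mesenchymal and was at 0 in 87 of 93 Dorsal cells (log2 fold -6.65), and Fgfr1 and Fgfr2 were higher in Mesenchymal as well (-1.69 and -4.41). The 4 genes higher in Dorsal, Etv4, Etv5, Spry4 and Dusp6, are transcriptional targets of FGF and related signals, at log2 folds of 2.34, 3.004, 2.45 and 1.80. Other such targets lay within 2-fold: Spry1 (-0.32), Spry2 (-0.77) and Etv1 (-0.69). Hedgehog genes gave 3 in Mesenchymal, led by the co-receptor Boc (1.20 and 39.7 CPM), and 2 in Dorsal of 10, with the ligand Dhh of Schwann cell precursors at 4.89 and 0 CPM. The 2 in Dorsal are close to the 14.3% of all measured genes. Retinoid genes gave 7 in Mesenchymal and 2 in Dorsal of 14, the latter close to the 14.3% of all measured genes. Aldh1a2, which makes retinoic acid, had a mean of 171 CPM but a median of 0 in Mesenchymal, with 23.6% of cells positive, and Aldh1a3, which makes it too, was at 41.6 and 5.48 CPM, positive in 46.7% of Dorsal and 5.6% of Mesenchymal cells.

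Hox genes, which record position along the body axis, differed by cluster. Of 29 measured, 5 were higher in Dorsal, close to the 14.3% of all measured genes, and 11 in Mesenchymal. In the HoxB cluster 4 of 8 were higher in Dorsal and 0 in Mesenchymal, namely Hoxb6 (30.03 and 7.67 CPM), Hoxb7 (26.05 and 8.87 CPM), Hoxb8 (7.86 and 2.16 CPM) and Hoxb9 (122 and 26.8 CPM). In the HoxA cluster 0 of 9 were higher in Dorsal and 6 in Mesenchymal, and in HoxC and HoxD the numbers were 0 and 2 of 6, and 1 and 3 of 6. Paralogues 10 to 13, the most posterior, were higher in Mesenchymal for 5 of 5 measured: Hoxa10, Hoxa11, Hoxc10, Hoxd10 and Hoxd11, with log2 folds from -1.53 to -4.02. Hoxb9 was positive in 85.9% (77.05 to 92.3) of Dorsal and 27.8% (17.9 to 39.6) of Mesenchymal cells, and Hoxd10 in 3.3% (0.7 to 9.2) and 30.6% (20.2 to 42.5).

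Imprinted genes, expressed from 1 parental copy and often tied to growth, were higher in Mesenchymal for 8 of 21 measured and in Dorsal for 3. The Dorsal count is close to the 14.3% of all measured genes. Igf2 ran from 184 to 2446 CPM over Mesenchymal cells with a median of 846 CPM, and from 0 to 380 CPM over Dorsal cells with a median of 39.4 CPM. The highest Dorsal cells overlapped the lowest Mesenchymal ones, and the log2 fold was -4.02. Peg3 stood at 274 and 1964 CPM and Zim1, its neighbour in the same imprinted domain, at 2.07 and 91.1 CPM, and Plagl1 at 42.5 and 230 CPM. Cdkn1c, the imprinted CDK inhibitor p57, was above 0 in every cell of both groups and higher in Dorsal, at a median of 2474 CPM (17.7 to 17012 CPM) against 644 CPM (46.96 to 1444 CPM), a log2 fold of 2.32. Mest, Gnas and Grb10 lay within 2-fold.

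Cell cycle genes barely separated the groups. Of 48 measured, 3 were higher in Dorsal (E2f1, Cdc25b and Uhrf1, at log2 folds of 1.19, 1.10 and 1.09) and 0 in Mesenchymal, and the median was 0.09 against 0.18 over all genes. Mki67 stood at 68.4 and 76.3 CPM, Top2a at 138 and 159 CPM and Ccnb1 at 121 and 96.6 CPM. The D cyclins were not alike: Ccnd1, which growth factor signals induce, was positive in 93.5% of Dorsal and 37.5% of Mesenchymal cells (436 and 50.9 CPM), while Ccnd2 (log2 fold 0.60) and Ccnd3 (-0.40) lay within 2-fold. Cytosolic ribosomal protein genes gave 0 of 78 past 2-fold in either direction, and glycolysis genes gave 5 of 18 in Dorsal and 0 in Mesenchymal, led by the neuronal glucose transporter Slc2a3 (35.3 and 5.55 CPM) and Ldha (1216 and 465 CPM). Dissociation stress genes were higher in Dorsal for 5 of 18, with Hspa1a at 202 and 43.5 CPM, and in Mesenchymal for Atf3 (8.04 and 38.02 CPM). Over all measured genes, 14.3% were higher in Dorsal and 7.62% in Mesenchymal. Without the macrophage-like cells 3 stress genes were higher in Dorsal, close to the 13.7% of all measured genes in that setting.

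Most other genes with the largest folds are on no list. In Dorsal they were Nell2, a secreted neuronal glycoprotein (202 and 0.08 CPM, positive in 83.7% of Dorsal and 0 of 72 Mesenchymal cells), Insc, an adaptor of asymmetric division (101 and 0 CPM), Gpr17, a receptor known from oligodendrocyte precursors (80.7 and 0.01 CPM), Tmem132e (73.03 and 0 CPM) and Phactr1, a regulator of actin and phosphatase 1 (252 and 2.45 CPM). In Mesenchymal they were Ddr2, a collagen receptor (0.99 and 193 CPM, positive in 88.9% of cells), Shisa3, an inhibitor of Wnt and FGF receptors (2.25 and 292 CPM), Mgp, which inhibits calcification (0.01 and 60.6 CPM), Cd248, a surface protein of stromal cells (1.23 and 127 CPM), Wisp1, a matricellular protein (0.43 and 77.6 CPM), Actc1, cardiac actin (0.04 and 102 CPM), and Iigp1, an interferon-induced guanosine triphosphatase (0.14 and 103 CPM). One cell held 51.8% of the Mesenchymal counts of Actc1 and 1 cell 30.04% of those of Iigp1. Fam210b, a mitochondrial protein, was named for its difference in the share of positive cells, at 90.2% of Dorsal against 9.7% of Mesenchymal.

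The rule also named Fcer1g and Laptm5, which are expressed by blood cells, among the 20 largest folds in Dorsal, beside macrophage markers such as Csf1r and C1qb. Fcer1g stood at a mean of 143 CPM and a median of 5.21 CPM in Dorsal and 0.19 CPM in Mesenchymal. Without the 8 macrophage-like cells its Dorsal mean was 27.2 CPM and its log2 fold 4.57, down from 6.92, and that of Laptm5 was 4.38, down from 6.64. The Dorsal cell with the most Fcer1g held 23.8% of its counts. Of 18 other cells that share a plate index with it, 14 had at least 5 counts, at a median of 51.7 CPM, and of 74 that share none, 34 did, at a median of 2.53 CPM. Csf1r stood at a log2 fold of 6.08, and 1.24 without the macrophage-like cells. Whether counts outside those 8 cells came from them was not tested. Sox10 and Dbh were slightly higher without them, at log2 folds of 8.08 and 9.11.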

How the data were processed

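Single-cell Smart-seq2 libraries from 93 Dorsal and 88 Mesenchymal cells were compared. The deposited estimated counts per gene were made by the authors with kallisto 0.43.1 and GRCm38, per the submitters' processing notes. The deposited log2 values, which are log2 of the counts over a size factor plus 1, served only as an alternative. Trimming and filters before deposit are not given in the sources used here. CPM was computed over 13448 entries with a symbol, and 661 without one were left out. Of the entries, 106 repeat a symbol, 88 of them with equal values, and were left out of the measured genes, so that the levels of such genes (such as Dlk1, Jund and Kif11) are uncertain. Without strand or unique molecular identifiers, overlapping genes and copied molecules cannot be separated. Cells ranged from 279531 to 3861567 counts in Dorsal and 126979 to 6200804 in Mesenchymal, and the shallower cells limit what is detectable. Coordinates are from GENCODE M21 on GRCm38, in which 13213 symbols were found.

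No test was run, since each group is 1 pool. The text names, per direction, the 20 measured genes with the largest fold that were positive in at least 25% of thinned cells of the higher group and at least 2-fold different the same way in summed counts and in cells of odd and of even i7 index, leaving out Ngfr, Pdgfrb, unnamed loci, pseudogenes and genes of the mitochondrial genome. It also names up to 4 members per list and direction, the genes of the pairs and cell type markers, and per direction the 5 genes with the largest difference in share. Members named beyond this, among them Wnt11, Notch1, Sox2, Gfra1, Slc18a1, Slc18a2, Col25a1, Fn1, Plagl1, Hoxa10, Hoxa11, Cnn2, Id4 and those given as within 2-fold, were chosen after their values were seen. The 32 gene lists, 13 marker sets and 27 pairs were chosen with earlier results of these data known. Some members counted in the lists are not reported here by name. The steps were tested on simulated data. Alternatives changed the pseudocount, scaling, totals, filter, fold, averaging, thinning and cells. Python 3.11.15, numpy 2.4.6, pandas 2.3.3, scipy 1.17.1 and matplotlib 3.10.9 were used.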

Additional observations from a re-analysis of the deposited data

Results flagged for a closer look

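Entries without a gene symbol lay outside the comparison. Of 661, 540 passed the same filter, of which 39 (7.22%) passed 2-fold on the Dorsal side and 22 (4.07%) on the Mesenchymal side, against 14.3% and 7.62% of the genes with a symbol. They were set aside because the table gives no name for them, and they are not described further.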

How the results depend on the processing

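No paired analysis was possible because each group is 1 pool and the cells carry no number that ties them across groups. The number of genes called higher ran from 628 to 2359 in Dorsal and from 395 to 1118 in Mesenchymal over the alternatives. Both lowest numbers are from the 4-fold setting, and all other settings used 2-fold. As shares of measured genes, 14.3% and 7.62% became 5.96% and 3.94% with a pseudocount of 10 CPM, and 5.3% and 3.34% at 4-fold. The median log2 fold of all genes, 0.18, was 0.075 with Dock10 and Cep97 out of the totals, 0.0037 with median-of-ratios scaling, 0.011 from the deposited log2 table and 0.29 with trimmed means. At 4-fold, 6 trophic and guidance receptors were higher in Dorsal and 11 collagen genes in Mesenchymal. Genes at least 50 points higher in share in Dorsal, 102, were 159 with positive at 1 count and 176 without thinning. Of 246 named genes past 2-fold, between 201 (pseudocount 10) and 246 (pseudocount 0.1) kept it, and 1 changed direction with even indices and 1 with trimmed means. Sign changes were listed for named genes past 2-fold in the main setting, here also those under the filter and so outside the 246. They were those of Cd14 (-0.48 with even indices, -0.57 without macrophage-like cells), Cdh5 (-0.11 without macrophage-like cells), Epcam (1.25 with odd indices), Kdr (0.19 with trimmed means), Tek (0.50 without shallow cells) and Zfp804a (0.079 with even indices). Sign changes of smaller folds are not listed. The cause was not tested. Depth limits the Mesenchymal side more, where 16 cells were too shallow for shares.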
